A study of Mus musculus with 24 samples.

Results

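The apolipoproteins described here are 10 genes whose proteins liver cells make and load onto lipid particles or release into plasma: Apoe, Apoa1, Apoa2, Apoa4, Apoa5, Apob, Apoc1, Apoc3, Apoh and Apom. They are 10 of the 24421 gene entries of the count table and were listed by gene symbol as apolipoproteins that liver makes. The rule sets no threshold on a measured value, but the list was drawn up with results of these data known, such as that Apoe is among the most counted entries. The study asked how a Western diet and inhaled vinyl chloride (VC), an industrial monomer that harms the liver, act on mouse liver alone and together. RNA from whole liver was sequenced in 24 libraries, in 8 groups of 3, and all mice were C57Bl/6J males. All mice were fasted for 4 h before sacrifice.

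The group w12_CD ate a low-fat control diet (13% fat) for 12 weeks and breathed air. The group w12_CD+VC ate the same diet and inhaled VC at 0.85 ± 0.1 ppm, with 6 h of exposure on each of 5 days per week, throughout the 12 weeks. The groups w12_WD and w12_WD+VC ate a Western diet (42% fat) in place of the control diet, with air and with VC. The 4 groups named m12 had these same diets and exposures for the first 12 weeks and were then housed for 9 further months, per the labels with or without Western diet feeding, so that VC had ended 9 months before the liver was taken; this time is called 12 months here, after the feeding time in the labels. The labels name no genetic change in any group, give no age of the mice, and leave unsaid whether every library is a separate mouse; p-values therefore measure only the spread among these libraries, which may be technical.

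Apolipoproteins are the protein part of lipoproteins. Apob is the large, non-exchangeable scaffold of the particles that carry triglyceride and cholesterol out of the liver, and Apoa1 and Apoa2 are the main proteins of high-density lipoprotein (HDL). Small exchangeable members move between particles. Apoe is the ligand through which remnants are taken up, Apoc1 and Apoc3 slow lipolysis and uptake, and Apoa5 favours lipolysis. Apoa4 is a lipid-responsive protein of intestine and liver. Outside this small exchangeable class, Apom carries sphingosine-1-phosphate on HDL, and Apoh is a phospholipid-binding plasma protein also called beta-2-glycoprotein I.

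The results below turn on 3 genes that passed the tests of both diet and VC at 12 months, Apob, Apoa2 and Apoh, and on Apoa4, which moved in other comparisons. Their promoter windows are shown so that the starts of these genes can be set side by side. Apoc1 passed the test of diet at 12 months but not that of VC, and no window was listed for it. Each window runs from 250 bases before to 50 bases after a RefSeq start (GRCm38.p6, plus strand, 5′ to 3′), and 8 of the 10 genes had at least 1 such window, 12 windows in all. Capitals mark matches on either strand to 4 motifs, which are the TATA element TATAAA, the promoter box CCAAT, the nuclear receptor half-site AGGTCA and the core CAAAGTCCA known from HNF4 sites.
Apob, chr12:7977427-7977726: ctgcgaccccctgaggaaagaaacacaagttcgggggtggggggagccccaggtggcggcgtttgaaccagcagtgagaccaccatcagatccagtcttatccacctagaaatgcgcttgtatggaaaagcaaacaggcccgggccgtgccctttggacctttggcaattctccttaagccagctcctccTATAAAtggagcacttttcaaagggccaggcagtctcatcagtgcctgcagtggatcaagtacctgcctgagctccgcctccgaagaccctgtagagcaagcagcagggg
Apoa2, chr1:171224804-171225103: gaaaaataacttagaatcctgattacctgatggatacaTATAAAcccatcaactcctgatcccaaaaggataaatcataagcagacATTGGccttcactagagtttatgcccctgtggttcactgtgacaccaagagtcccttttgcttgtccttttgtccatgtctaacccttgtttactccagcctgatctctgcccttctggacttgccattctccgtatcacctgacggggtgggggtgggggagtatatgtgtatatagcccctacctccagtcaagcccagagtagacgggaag
Apoh, chr11:108395047-108395346: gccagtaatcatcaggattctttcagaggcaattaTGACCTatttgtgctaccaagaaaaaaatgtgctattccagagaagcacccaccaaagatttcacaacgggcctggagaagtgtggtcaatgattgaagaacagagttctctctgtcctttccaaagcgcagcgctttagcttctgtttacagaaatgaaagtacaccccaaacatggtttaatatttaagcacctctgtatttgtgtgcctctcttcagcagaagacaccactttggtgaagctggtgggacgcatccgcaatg
Apoa4, chr9:46240594-46240893: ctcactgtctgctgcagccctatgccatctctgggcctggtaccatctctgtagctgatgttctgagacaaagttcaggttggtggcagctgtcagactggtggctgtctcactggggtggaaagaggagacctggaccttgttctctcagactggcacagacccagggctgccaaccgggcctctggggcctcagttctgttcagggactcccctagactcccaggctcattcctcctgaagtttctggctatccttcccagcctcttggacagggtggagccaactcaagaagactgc

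The Apob window holds TATAAA with its first base at position -60 from the RefSeq start. The Apoa2 window shown, 1 of 2 listed for the gene, holds TATAAA and, as ATTGG on the strand shown, CCAAT. The Apoh window holds AGGTCA on the other strand, as TGACCT, with its first base at -215. The start of this Apoh window lies inside the GENCODE span of the gene. The Apoa4 window holds no match to these letters. No match overlapped another in these windows. Of all 32851 mouse windows of this length, 13.62% held TATAAA, 37.41% CCAAT and 16.26% AGGTCA. CAAAGTCCA was in 0.47% of all windows. Of the 12 apolipoprotein windows, 5 held TATAAA, 2 CCAAT, 2 AGGTCA and 0 CAAAGTCCA. Windows of a gene can overlap: 2 of the 5 with TATAAA are of Apoa5 and share 1 site. Both windows with CCAAT are of Apoa2. These matches are a description of the letters in these windows.

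The 10 genes lie at 6 places in the genome (GRCm38, GENCODE M21). Apoe (chr7:19696109-19699188) and Apoc1 (chr7:19689481-19692660) are neighbours on the minus strand of chromosome 7. Apoa1 (chr9:46228580-46230466, plus), Apoc3 (chr9:46232933-46235636, minus), Apoa4 (chr9:46240696-46243459, plus) and Apoa5 (chr9:46268633-46271919, plus) form a cluster on chromosome 9. Apoa2 lies at chr1:171225054-171226379 (plus), Apob at chr12:7977648-8016835 (plus), Apoh at chr11:108343354-108414396 (plus) and Apom at chr17:35128997-35132050 (minus). Counts here cover whole exons, and whether the counting used strand is stated in none of the sources at hand. Without strand, reads of a gene and of a gene on its other strand cannot be told apart. Exons of 7 members overlap no exon on the other strand in this annotation. Apoa4 overlaps the antisense genes Gm10680 by 632 bp and Gm47528 by 634 bp, Apoa5 overlaps Gm47544 by 524 bp, and Apoh overlaps Prkca by 30 bp. Prkca held 81 counts against 1336 for Apoh. In RefSeq, the span of Apoa2 also overlaps that of Tomm40l on the other strand by 951 bp, and Tomm40l held 195875 counts against 9352 for Apoa2.

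The table held 8606009 counts, of which the 10 apolipoproteins held 169228. The third w12_WD library had 607 counts, 3 of them for Apoe and 1 for Apoa2, so it tells nothing about the other 8 members. It stayed in the fit but is left out of group means, which for w12_WD have n = 2. The other 23 libraries had 126160 to 962493 counts, which makes 0 counts an upper limit of 3.12 to 23.8 counts scaled to a common library size (CPM); such limits cover counting error only. At this depth 4198 genes passed the filter on low counts, among them all 10 apolipoproteins. Of the 16 hepatocyte markers, 15 had counts in each of these 23 libraries, and Ass1 was at 0 in all. The first m12_CD library stood apart: the apolipoproteins made up 0.654% of its counts, the lowest share of all 23, against 1.73% and 1.67% in the other m12_CD libraries. Calls of members that rest on it are given with and without it. Calls of markers and of other genes are given with it only.

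Levels are TMM-scaled CPM, and levels between genes are compared only per kilobase of exon. Apoe stood highest by this measure, at 5919 ± 2086 CPM per kb (SD over 23 libraries), and it was the eighth most counted entry of the whole table. Apoa1 (2206 ± 849), Apoa2 (2032 ± 1018), Apoc1 (1067 ± 654) and Apoa4 (769 ± 446 CPM per kb) followed. Apoh (106 ± 57.9), Apoc3 (94.9 ± 49.7) and Apoa5 (93.4 ± 43.6 CPM per kb) formed a lower tier, and Apob (31.8 ± 15.1) and Apom (28.8 ± 19.4 CPM per kb) the lowest. The gaps between Apoe and Apoa1, between Apoa4 and Apoh, and between Apoa5 and Apob exceeded the SD of both neighbours. All other neighbours in this order differed by less than the larger of their SDs. Entries that overlap an exon on the other strand held 78.3% of all counts in the table. The globin genes Hbb-bs, Hbb-bt, Hba-a1 and Hba-a2 were at 0 in every group, as was Ass1. The order is therefore one of counts, and how far it follows transcript levels was not tested.

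**Figure D1:**
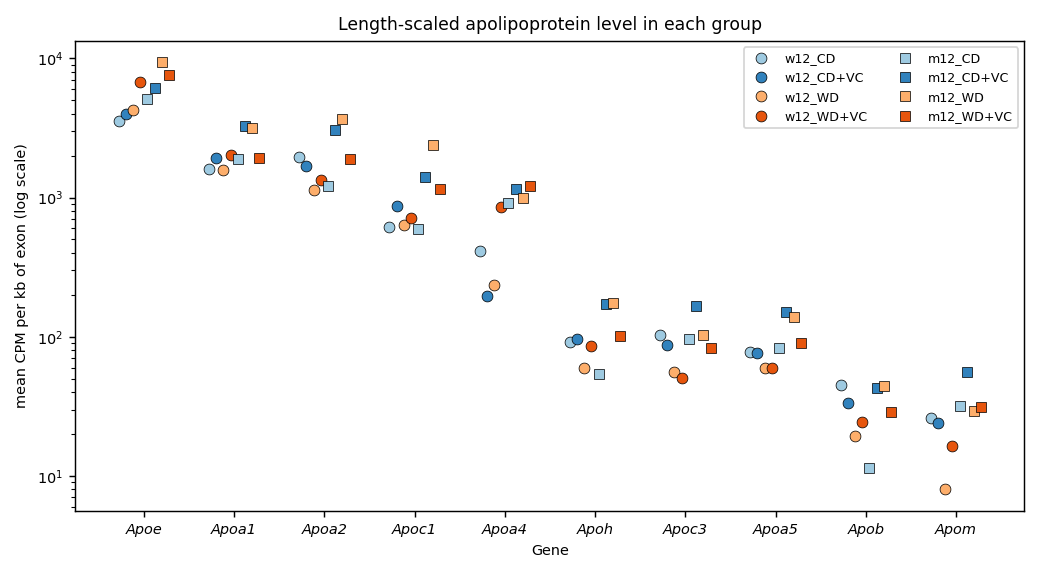
Mean level of each apolipoprotein in each of the 8 groups, in TMM-scaled CPM per kilobase of exon on a log axis, ordered by the mean over 23 libraries; circles are the w12 groups and squares the m12 groups. Apoe stands highest in every group, and Apob and Apom lie at the bottom of the order.

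The Western diet on air at 12 months raised Apob, Apoa2, Apoc1 and Apoh, and no apolipoprotein fell. Apob gave 70.1, 222 and 188 CPM in the 3 m12_CD libraries and 628, 883 and 351 CPM in the m12_WD libraries. The lowest m12_WD library stood above the highest m12_CD library. The log2 fold change of Apob was 1.92 ± 0.37 (SE), a 3.77-fold rise (adjusted p = 0.000336; edgeR quasi-likelihood test with Benjamini-Hochberg adjustment over 4198 genes, as for every adjusted p here). Without the first m12_CD library, the log2 fold change was 1.51 (edgeR adjusted p = 0.00651). Over the 8 groups, the mean of Apob was lowest in m12_CD (160 ± 79.7 CPM, SD, n = 3) and highest in w12_CD (632 ± 193 CPM). The mean was 620 ± 266 CPM in m12_WD and 600 ± 193 CPM in m12_CD+VC, so neither stood above w12_CD. The rises of Apob at 12 months are thus rises from a low m12_CD level.

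Apoa2, a structural protein of HDL, gave 385, 895 and 687 CPM in m12_CD and 2027, 2098 and 1754 CPM in m12_WD. The groups did not overlap, and all 3 m12_WD libraries were close together (1959.5 ± 182 CPM, SD). Its log2 fold change was 1.57 ± 0.34 (edgeR adjusted p = 0.00109), and 1.23 without the first m12_CD library (edgeR adjusted p = 0.0191). Tomm40l, on the other strand, had 22920.5 ± 2194 CPM in m12_CD and 22168 ± 9245 CPM in m12_WD (SD, n = 3), a log2 fold change of -0.05 ± 0.49.

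Apoc1, an inhibitor of lipolysis and remnant uptake, gave 83.2, 607 and 645 CPM in m12_CD and 1866, 2174 and 1319 CPM in m12_WD. Its log2 fold change of 1.99 ± 0.41 (edgeR adjusted p = 0.000723) was 1.43 without the first m12_CD library, whose level was the lowest of all 23 (edgeR adjusted p = 0.00474). Apoh gave 35.0, 97.5 and 128 CPM in m12_CD and 329, 389.9 and 114 CPM in m12_WD. The third m12_WD library lay inside the m12_CD range, so the groups overlapped. The log2 fold change of Apoh was 1.63 ± 0.42 (edgeR adjusted p = 0.00488), and it missed the threshold without the first m12_CD library (1.21, edgeR adjusted p = 0.0545).

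Apoe, the remnant ligand, gave 6298, 12686 and 13957 CPM in m12_CD and 20109, 20175 and 20039 CPM in m12_WD. The m12_WD libraries (20108 ± 68.1 CPM, SD, n = 3) lay close together and above every m12_CD library. The log2 fold change was 0.87 ± 0.33, with a 95% interval of 0.20 to 1.55, and edgeR's adjusted p of 0.0512 missed 0.05. It passed with another scaling, with DESeq2, with limma-voom, with these groups fitted alone and without the smallest library. It did not pass without the filter on low counts, nor with the replicate number as a block. Nor did it pass with TMM within overlap classes, or in a fit on entries without an exon on the other strand. Without the first m12_CD library the log2 fold change was 0.52 (edgeR adjusted p = 0.349). Apoa1 had 2344 ± 766 CPM in m12_CD and 3905 ± 1449 CPM in m12_WD (SD, n = 3), a log2 fold change of 0.73 ± 0.33 (edgeR adjusted p = 0.0984). The log2 fold changes of Apoa4, Apoa5, Apoc3 and Apom ran from -0.24 to 0.69, and none was called. So 4 of 10 members rose and 0 fell, where 24.5% of all 4198 genes were called and 13.4% rose, and for 4 of 10 (Apoe among them, Apoh not) every m12_WD library lay above every m12_CD library, where 19.7% of all genes did so. The median log2 fold change was 0.80 over the 10 members and 0.11 over all genes.

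**Figure D2:**
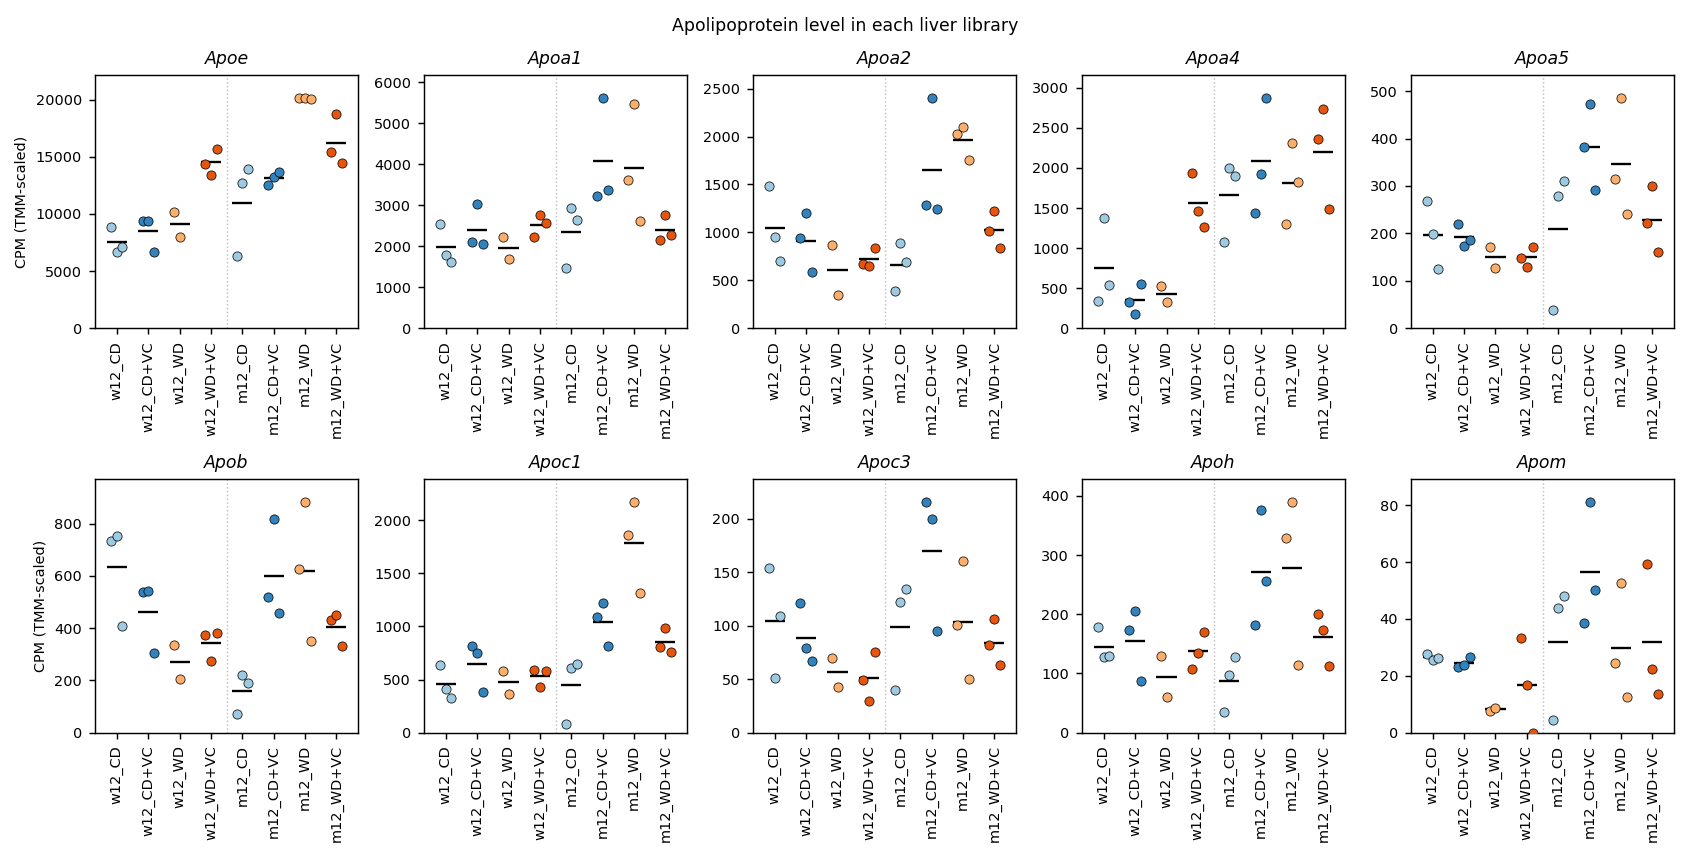
TMM-scaled CPM of each apolipoprotein in 23 libraries (points) with group means (bars), 1 panel per gene; the dotted line parts the w12 from the m12 groups, and the 607-count library is not drawn. For Apob, Apoa2 and Apoc1 every m12_WD and every m12_CD+VC point lies above every m12_CD point.

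VC that had ended 9 months earlier went with higher Apob, Apoa2 and Apoh in mice on control diet, measured against the same m12_CD libraries as the diet effect. The m12_CD+VC libraries gave 519.8, 819 and 459.6 CPM for Apob, all above the m12_CD libraries. Its log2 fold change was 1.86 ± 0.37 (edgeR adjusted p = 0.00882). Apoa2 gave 1291, 2406 and 1242 CPM, again all above m12_CD, with a log2 fold change of 1.31 ± 0.34 (edgeR adjusted p = 0.0236). Apoh gave 182, 376 and 256 CPM, a log2 fold change of 1.58 ± 0.43 (edgeR adjusted p = 0.0297), with no overlap between groups. Apoc1 gave 1089, 1225 and 816 CPM and Apoa1 3224, 5625 and 3365 CPM. Both genes lay above every m12_CD library without passing the test (log2 fold changes 1.21 ± 0.40 and 0.79 ± 0.33, edgeR adjusted p = 0.0684 and 0.123). So 3 of 10 members rose and 0 fell, where 5.22% of all genes were called and 4.1% rose, and 5 of 10 had groups that did not overlap, where 17.8% of all genes did so upward.

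This result rested on single libraries. Without the first m12_CD library, 0 of 10 members were called, with log2 fold changes of 1.45 for Apob (edgeR adjusted p = 0.0936), 0.97 for Apoa2 (0.189) and 1.17 for Apoh (0.195). Without the second m12_CD+VC library, which had the fewest counts of the 23, it was also 0 of 10, with Apob at 1.53 (edgeR adjusted p = 0.0634).

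The diet and VC effects did not add up at 12 months. In the interaction test, which takes the diet effect on air from the diet effect after VC, 5 members were lower and 0 higher: Apob (-2.47 ± 0.51 on the log2 scale, edgeR adjusted p = 0.00549), Apoa2 (-2.25 ± 0.48, 0.00644), Apoh (-2.37 ± 0.59, 0.0139), Apoc1 (-2.27 ± 0.57, 0.0141) and Apoa1 (-1.49 ± 0.47, 0.0403). Of all genes, 9.81% were called and 6.48% were lower. The median over the 10 members was -1.45, and over all genes -0.04. All 10 estimates were below 0, and the interval of Apoa5, the lipolysis activator, ran from -2.55 to -0.27 with an edgeR adjusted p of 0.0942.

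In the group with both treatments, the mean level of each of these 5 genes lay between that of m12_CD and those of the groups with 1 treatment. In m12_WD+VC, Apob gave 431, 449 and 331 CPM, which is above every m12_CD library and below every m12_CD+VC library. Apoa2 gave 1009.8, 1220.1 and 834 CPM, below every library of the groups with diet alone or VC alone. Apoc1 gave 809, 987 and 760.3 CPM, below every m12_WD library. Apoh gave 200.5, 174 and 112 CPM, which overlapped the ranges of all 3 other groups. Apoa1 gave 2161, 2753 and 2278 CPM, within the range of its m12_CD libraries.

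Tested on their own, these lower levels were not called. Diet after VC (m12_WD+VC against m12_CD+VC) called 0 of 10 members, where 1.81% of all genes were called, with estimates from -0.99 (Apom) to 0.30 (Apoe); 2 members and 619 genes had an unadjusted p under 0.05. VC on Western diet (m12_WD+VC against m12_WD) also called 0 of 10, where 0.572% of all genes were called; the lowest estimates were Apoc1 at -1.06 ± 0.40 (edgeR adjusted p = 0.299) and Apoa2 at -0.94 ± 0.33 (edgeR adjusted p = 0.269), and 3 members and 459 genes had an unadjusted p under 0.05. DESeq2 and limma-voom called 0 members in either comparison. These comparisons share their libraries with each other and with the interaction. Apob and Apoa2 passed the interaction test whichever of its 12 libraries was left out, and without the third m12_WD+VC library they were the only members called (Apob -2.32, edgeR adjusted p = 0.0295; Apoa2 -2.09, edgeR adjusted p = 0.0338). Without the first m12_CD library Apob, Apoa2 and Apoc1 were called, and Apoh (-1.96, edgeR adjusted p = 0.0507) and Apoa1 (-1.17, 0.144) were not. Apoa1 passed in 4 of the 12 fits that left out 1 library.

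**Figure D3:**
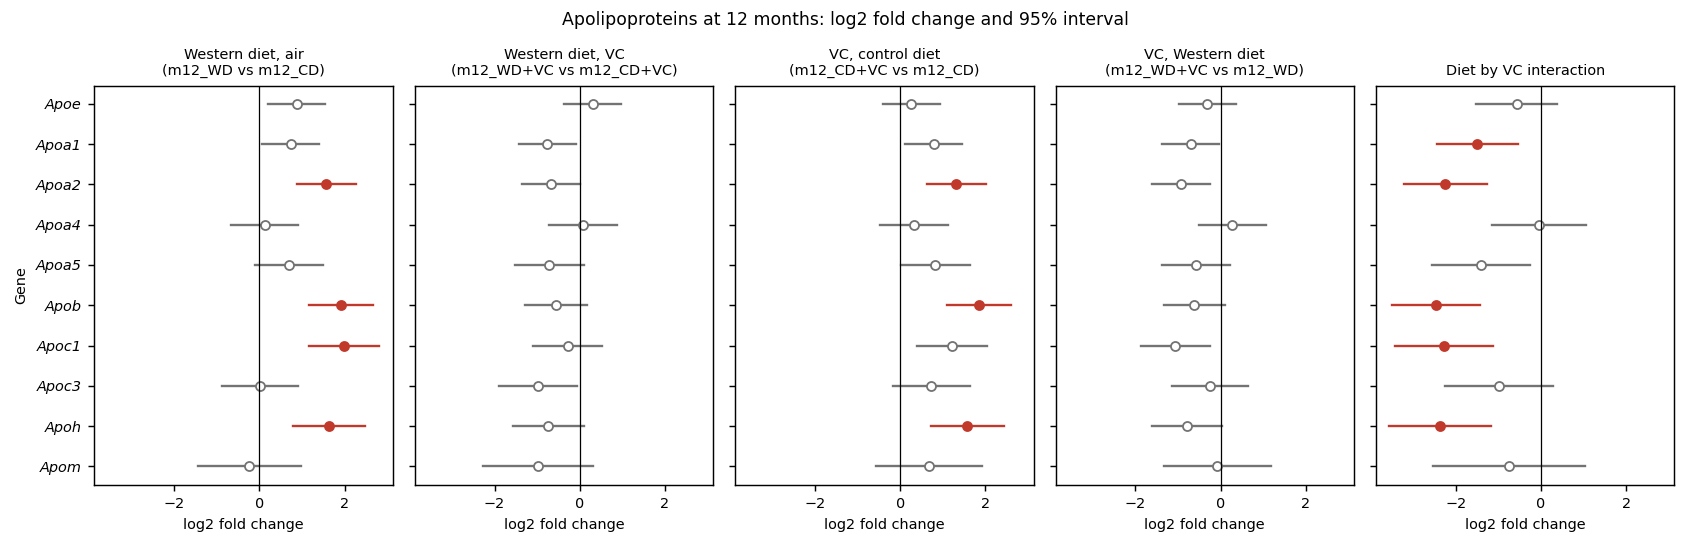
Log2 fold change (point) and 95% interval (line) of each apolipoprotein in 5 comparisons at 12 months; filled red points have an edgeR adjusted p under 0.05. The 4 called genes of the diet effect on air and the 3 of the VC effect on control diet lie to the right of 0, and the 5 called genes of the interaction to the left.

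Other values moved with these 4 groups. Hepatocyte markers summed to 6249.9 to 13855 CPM in the m12_CD libraries and 16093 to 29646 CPM in m12_WD. With VC they summed to 24096 to 39788 CPM in m12_CD+VC and 10762 to 17909 CPM in m12_WD+VC. Of 15 tested hepatocyte markers, 7 rose with diet on air, 8 rose with VC on control diet, and 10 were lower in the interaction. Macrophage markers summed to 109 to 182 CPM in the m12_CD libraries and 812 to 1011 CPM in m12_WD, and 8 of 11 tested rose with diet on air. With VC they summed to 244 to 398 CPM in m12_CD+VC and 512 to 772 CPM in m12_WD+VC. Of the 11 tested, 1 rose with VC on control diet and 3 were lower in the interaction (median -1.54). Gpnmb, Ctss and Trem2 were at 0 in m12_CD. Of other cell types, 1 of 5 tested endothelial, 2 of 3 stellate, 1 of 1 cholangiocyte and 1 of 1 adipocyte markers rose with diet on air, and the cholangiocyte marker was lower in the interaction. Macrophages also make Apoe and Apoc1. The share of counts in entries with no exon on the other strand was 15.5% ± 3.58 in m12_CD and 25.8% ± 3.91 in m12_WD (SD, n = 3). With VC this share was 26.5% ± 4.64 in m12_CD+VC and 20.6% ± 2.42 in m12_WD+VC. The part of these markers and of this share in the apolipoprotein results was not tested. A fit on entries without such an overlap alone does not hold Apoa4, Apoa5 or Apoh. Of the 4198 entries of the main fit, 2026 have no such overlap, so counts of genes from the 2 fits have unlike bases. In the fit without overlaps, Apob, Apoa2 and Apoc1 still rose with diet on air. For VC on control diet that fit called 0 members and 20 genes in all, against 219 in the fit on all entries, with Apob at 1.43 (edgeR adjusted p = 0.0550) and Apoa2 at 0.85 (0.214). In the interaction it called Apob alone (-1.89, edgeR adjusted p = 0.0362) and 141 genes in all, against 412, with Apoa2 at -1.66 (0.0719) and Apoc1 at -1.74 (0.0841). In bulk tissue, fewer cells of a type and less RNA per cell cannot be told apart.

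**Figure D4:**
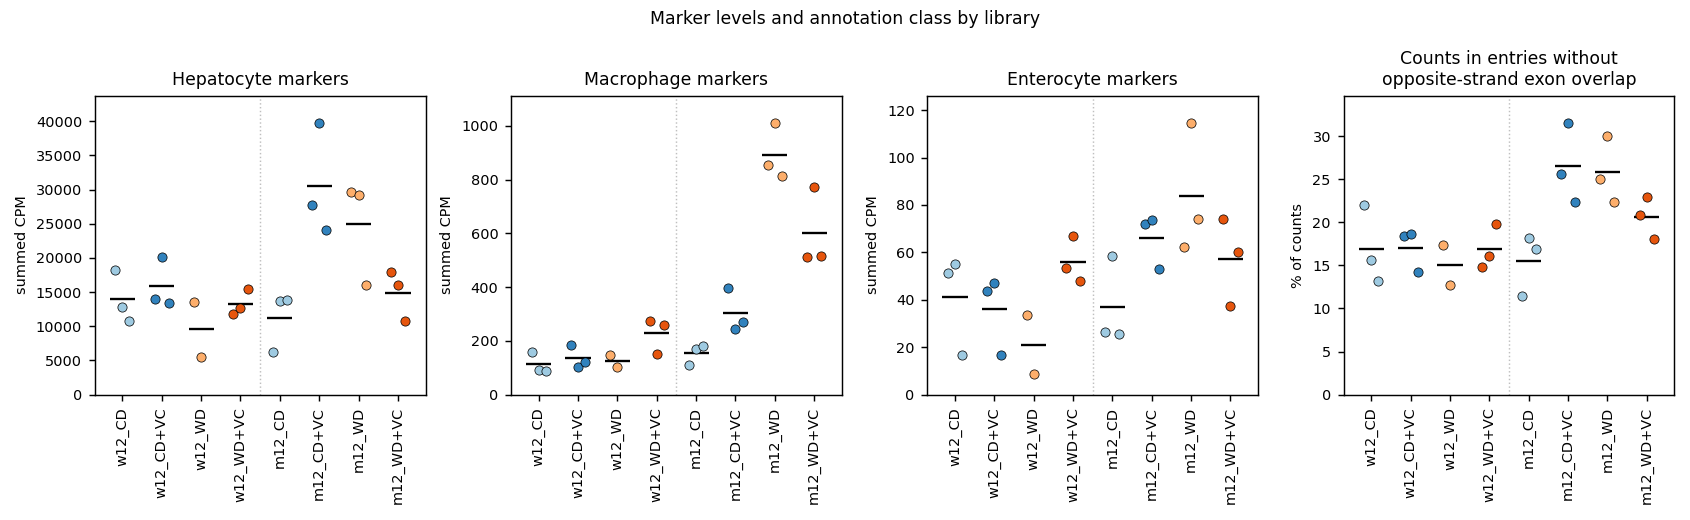
Summed TMM-scaled CPM of hepatocyte, macrophage and enterocyte markers, and percent of counts in entries without an exon on the other strand, in 23 libraries (points) with group means (bars). Macrophage markers lie at 812 to 1011 CPM in m12_WD and at 109 to 182 CPM in m12_CD.

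At 12 weeks Apoa4 was the only member that passed a test. On the Western diet with VC, the w12_WD+VC libraries gave 1943, 1464 and 1268 CPM, against 333, 173 and 556 CPM in w12_CD+VC. Every w12_WD+VC library stood above every w12_CD+VC library. The log2 fold change was 2.11 ± 0.41, a 4.30-fold rise (edgeR adjusted p = 0.0137), and Apoa4 was the only one of 10 members called, where 0.524% of all genes were called and 0.286% rose. It missed the threshold without the first w12_WD+VC library (1.91, edgeR adjusted p = 0.160), without the first w12_CD+VC library (2.03, 0.0534) and without the second (1.80, 0.0940).

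The same w12_WD+VC libraries also stood above the w12_WD libraries with 523 and 331 CPM of Apoa4. That difference, 1.89 ± 0.46 on the log2 scale, had an edgeR adjusted p of 0.190, in a comparison that called 0 of 10 members and 0% of all genes in edgeR's test, with 2 members and 235 genes at an unadjusted p under 0.05; DESeq2 and limma-voom also called 0 members. The diet by VC interaction of Apoa4 at 12 weeks was 2.93 ± 0.62 with an unadjusted p of 3.44e-05 and an edgeR adjusted p of 0.0721; 0 members and 0.0238% of all genes were called, and 1 member and 186 genes had an unadjusted p under 0.05. DESeq2 called 0 members and limma-voom 1, Apoa4. The w12_CD libraries gave 339.6, 1369.7 and 535 CPM, and their second library reached into the w12_WD+VC range. Apoe gave 14401, 13412 and 15696 CPM in w12_WD+VC, above all 8 other w12 libraries with over 10000 counts, which ran up to 10195 CPM. Its differences did not pass the test: 0.78 ± 0.33 against w12_CD+VC (edgeR adjusted p = 0.407) and 0.95 ± 0.34 against w12_WD (0.729).

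Diet on air and VC on control diet changed no apolipoprotein at 12 weeks in edgeR's test. For diet on air, 0 of 10 members and 0.0238% of all genes were called, and 1 member, Apob, and 237 genes had an unadjusted p under 0.05. Apob gave 734, 753 and 409 CPM in w12_CD and 337 and 204 CPM in w12_WD, with no overlap between the groups. Its log2 difference was -1.22 ± 0.41, with an interval of -2.05 to -0.39 (edgeR adjusted p = 0.717). For VC on control diet, 0 of 10 members and 0% of all genes were called, with 1 member, Apoa4, and 170 genes at an unadjusted p under 0.05. DESeq2 and limma-voom also called 0 members in both comparisons.

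Apom, the carrier of sphingosine-1-phosphate, was the least counted member, with 218 counts in all. It gave 27.6, 25.7 and 26.4 CPM in w12_CD, 7.77 and 8.50 CPM in w12_WD, and 33.5, 16.8 and 0 CPM in w12_WD+VC. The 0 allows up to 19.7 CPM in that library. A lower level in w12_WD than in w12_CD (-1.70 ± 0.95, edgeR adjusted p = 0.890) was not resolved at this depth, nor was any other difference of Apom. Apoc3, the inhibitor of lipoprotein lipase, and Apoa5 were likewise called in 0 of 16 comparisons.

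The levels also differed between the times. On the Western diet with air, 7 of 10 members were higher at 12 months than at 12 weeks and 0 lower, where 14.6% of all genes were called and 7.74% were higher. On the log2 scale with SE, or as a fold for the first, they were Apoa4 (4.30-fold, edgeR adjusted p = 0.00251), Apoc1 (1.94 ± 0.46, 0.00468), Apoa2 (1.66 ± 0.39, 0.00376), Apoh (1.45 ± 0.49, 0.0397), Apoe (1.42 ± 0.34, 0.00529), Apob (1.19 ± 0.41, 0.0449) and Apoa1 (1.14 ± 0.36, 0.0278). Every m12_WD library stood above both w12_WD libraries for 8 members, where 26% of all genes did so. Macrophage markers rose too, 7 of 11 tested, and hepatocyte markers, 6 of 15. The 1 tested marker of enterocytes, Fabp2, rose as well (1.84 ± 0.58, edgeR adjusted p = 0.0281), as did the 1 tested marker each of cholangiocytes and adipocytes. The part of these markers was not tested. Only 2 usable libraries stand behind w12_WD. Without the 607-count library 4 members were called, Apoe at 1.06, Apoa2 at 1.56, Apoa4 at 1.96 and Apoc1 at 1.81, and without the second w12_WD library only Apoe was (1.49, edgeR adjusted p = 0.0327). In the fit on entries without an exon on the other strand, Apoa2 and Apoc1 passed and Apoe did not.

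On control diet with air, Apob was the only member called, and it was lower at 12 months: the m12_CD libraries (70.1, 222 and 188 CPM) all lay below the w12_CD libraries (734, 753 and 409 CPM). The log2 difference was -1.95 ± 0.37 (edgeR adjusted p = 0.00453), where 1.62% of all genes were called and 0.929% were lower. Its adjusted p stayed under 0.05 in each fit that left out 1 library, with an edgeR adjusted p of 0.0337 without the first m12_CD library. On control diet with VC, Apoa4 was the only member called, at 1443, 1927 and 2877 CPM in m12_CD+VC against 333, 173 and 556 CPM in w12_CD+VC. Its log2 difference was 2.52 ± 0.42 (edgeR adjusted p = 0.00167; 6.38% of all genes called, 3.24% higher), and it passed in every fit without 1 library. For 7 of 10 members every m12_CD+VC library stood above every w12_CD+VC library, where 15.8% of all genes did so. On the Western diet with VC, 0 of 10 members were called, where 0.786% of all genes were, with 0 members and 496 genes at an unadjusted p under 0.05; DESeq2 and limma-voom called 0 members as well. Time, age, the further feeding and the interval since exposure cannot be told apart in these groups.

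The diet effect on air itself differed between the times for 4 members, in a test of the difference where 6.67% of all genes were called and 3.41% were higher. Apob differed by 3.13 ± 0.55 (edgeR adjusted p = 0.000847), Apoa2 by 2.33 ± 0.51 (0.00698), Apoh by 2.15 ± 0.65 (0.0379) and Apoc1 by 1.97 ± 0.61 (0.0431) on the log2 scale, all more positive at 12 months. In the same test 6 of 15 hepatocyte markers (median 1.69), 2 of 11 macrophage markers (median 2.08) and 1 of 1 adipocyte markers were higher, and their part was not tested. Without the 607-count library Apob and Apoa2 (2.21) passed, and Apoc1 and Apoh did not (edgeR adjusted p = 0.0617 and 0.0549). Without the second w12_WD library only Apob passed (2.88, edgeR adjusted p = 0.0140). Without the first m12_CD library Apob and Apoa2 passed, and Apoc1 and Apoh did not. The VC effect on control diet differed between the times for Apob alone, by 2.31 ± 0.51 (edgeR adjusted p = 0.0487; 0.143% of all genes called, 0.119% higher), a call that 10 of the 12 fits without 1 library did not give. The fit without the first m12_CD library was among these 10.

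**Figure D5:**
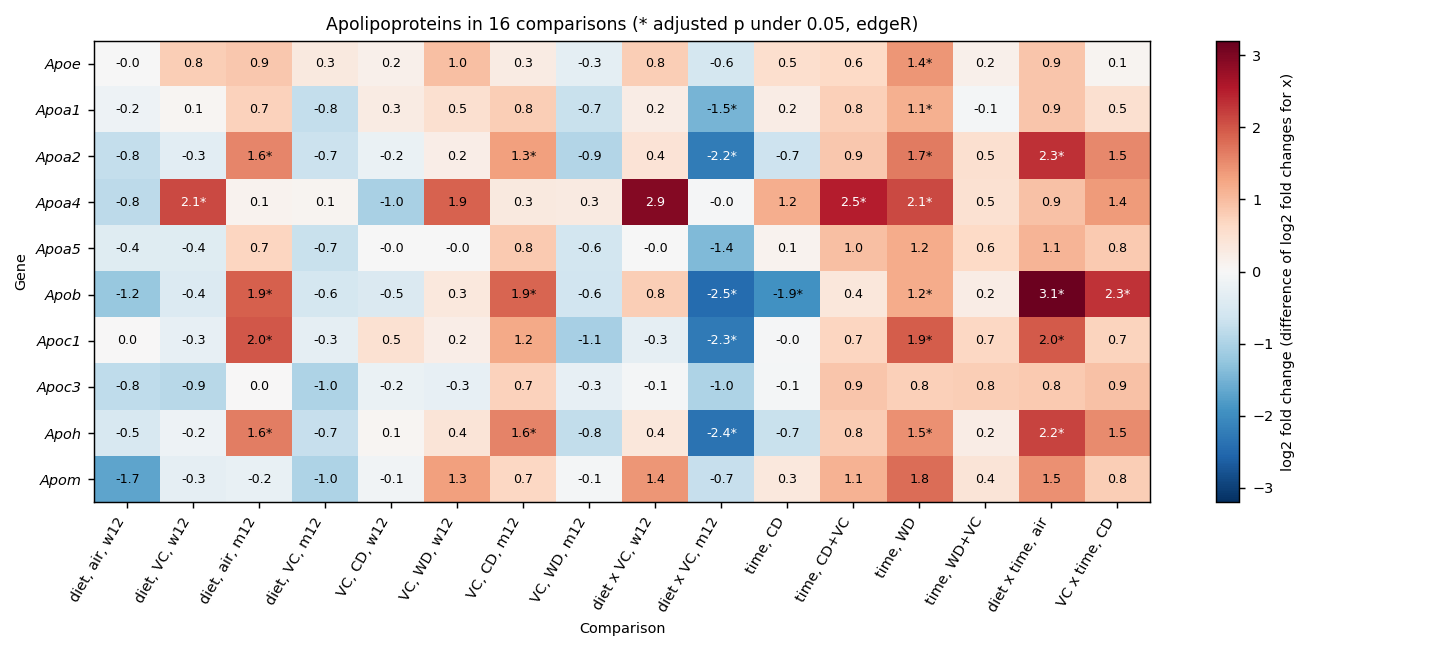
Log2 fold change of the 10 apolipoproteins in 16 comparisons (color and number; for columns marked x, a difference of log2 fold changes), with a star where the edgeR adjusted p is under 0.05. The Apob, Apoa2 and Apoh rows share the stars in diet and VC at 12 months and their interaction, and Apoa4 has its own at 12 weeks with VC and over time.

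Apoa4 was called in none of the 5 comparisons among the 4 m12 groups. Its libraries gave 1077, 2004 and 1904 CPM in m12_CD and 1301, 2312 and 1822 CPM in m12_WD. With VC they gave 1443, 1927 and 2877 CPM in m12_CD+VC, and 2361, 2739.5 and 1488 CPM in m12_WD+VC. These ranges overlap between all 4 groups, and the interaction was -0.05 ± 0.55, with an interval of -1.16 to 1.07. Since the intestine makes Apoa4 too, enterocyte markers were read in the same libraries. Cdx1, Cdx2, Sis, Lct and Alpi were at 0 counts in every group. The 7 markers summed to 8.50 to 115 CPM, which came from Fabp2 and Vil1.

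Other genes of lipoprotein metabolism were counted from lists of roles. Their counts are to be read against all genes: 13.4% rose with diet on air at 12 months, 4.1% rose with VC on control diet and 6.48% were lower in the interaction. Among other apolipoproteins and their partners, 3 of 12 tested genes rose with diet on air at 12 months (median log2 fold change 1.23, against 0.11 over all genes): Clu, a chaperone also called apolipoprotein J (1.81 ± 0.35, edgeR adjusted p = 0.000333), Pon1, an HDL esterase (2.18 ± 0.73, 0.0279), and Apoc4, the neighbour of Apoc1 (1.05 ± 0.36, 0.0316). Clu and Pon1 also rose with VC on control diet (1.53 ± 0.35 and 2.58 ± 0.76, edgeR adjusted p = 0.0147 and 0.0428) and were lower in the interaction (-2.07 ± 0.48 and -3.52 ± 0.99, edgeR adjusted p = 0.00986 and 0.0252).

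Among genes that lipidate Apob and carry it out of the endoplasmic reticulum, 3 of 11 tested rose with diet on air (median 0.91), the same 3 of 11 rose with VC on control diet, and these 3 were lower in the interaction. They were P4hb, the small subunit of the microsomal triglyceride transfer protein and a disulfide isomerase, Pdia3, another disulfide isomerase, and Sar1b, a GTPase of the transport vesicles. P4hb had 193.6 ± 80.6 CPM in m12_CD and 525 ± 176 CPM in m12_WD (SD, n = 3), and with VC 498.5 ± 124 CPM on control diet and 368 ± 112 CPM on Western diet. Of these genes only P4hb passed over time on the Western diet (1.59 ± 0.41, edgeR adjusted p = 0.00901).

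Of 9 tested receptor and uptake genes (median 0.08), 2 rose with diet on air, where 13.4% of all genes did: Scarb1, the HDL receptor (2.96 ± 0.52, edgeR adjusted p = 0.000148), and Lrp1, a remnant receptor (0.93 ± 0.33, 0.0354). Lrp1 was the only one that rose with VC on control diet (1.37 ± 0.33, edgeR adjusted p = 0.0198), and Scarb1 the only one lower in the interaction (-2.74 ± 0.72, 0.0176). At 12 weeks Lsr, a lipolysis-stimulated receptor, fell with diet under VC (-1.91 ± 0.46, edgeR adjusted p = 0.0401), the only gene of these 6 lists called in that comparison.

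Of 7 tested genes that remodel particles in plasma or break them down (median 1.81), 5 rose with diet on air, among them Lpl, Lipa, Lipc and Lcat. Lpl, the lipase that Apoc3 and Apoa5 act on, had 0 counts in m12_CD and 71.6 ± 30.8 CPM in m12_WD (SD, n = 3). Lipa, the lysosomal acid lipase, had 5.38 ± 4.95 CPM in m12_CD and 51.3 ± 33.7 CPM in m12_WD. Lcat, the cholesterol-esterifying enzyme that Apoa1 activates, rose by 1.15 ± 0.42 (edgeR adjusted p = 0.0398). Lpl and Lipa are also genes of macrophages, whose markers rose in the same comparison. Of 5 tested sterol export genes (median 1.19), Abcg5 (2.56 ± 0.72, edgeR adjusted p = 0.00949) and Abcb4 (1.32 ± 0.38, 0.0104) rose and 0 fell.

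Of 15 tested transcription factors known from apolipoprotein or lipid genes (median 0.46), 3 rose and 2 fell with diet on air, where 13.4% of all genes rose and 11.1% fell. Ppara, the fatty acid receptor, rose (3.09 ± 0.73, edgeR adjusted p = 0.00244), from 5 counts in all of m12_CD, as did Mlxipl (1.48 ± 0.46, 0.0174) and Creb3l3 (0.97 ± 0.36, 0.0464). Of those that fell, Cebpa, a factor of hepatocyte and fat cell differentiation, had a log2 fold change of -1.21 ± 0.28 (edgeR adjusted p = 0.00205). In the interaction Cebpa was higher (1.53 ± 0.40, edgeR adjusted p = 0.0165) and Ppara lower (-3.51 ± 0.97, 0.0221).

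The genes outside the members whose levels ran most like each member over the 23 libraries are given with Pearson's r on log2 CPM. They are a description, since the libraries share groups and depth. Apoh ran most like Gc, the vitamin D carrier (0.957), Apoa2 like Ces1c, a carboxylesterase (0.938), Apoc1 like Eef1a1, an elongation factor (0.938), and Apob like Scp2, a sterol carrier (0.919). Apoe ran most like Igfbp2, a growth factor binder (0.909), Apoc3 like Arg1, the arginase of the urea cycle (0.889), and Apoa5 like Sema4g (0.878). Apoa1 ran most like Ces1c (0.863), Apoa4 like Gnai2, a G protein subunit (0.845), and Apom like Eif1, an initiation factor (0.783). Among the members themselves, the closest pairs were Apoa5 with Apoc1 (0.880) and Apoa2 with Apoh (0.866). The chromosome 7 neighbours Apoe and Apoc1 had an r of 0.778, and the highest r of Apoa4 with any member was 0.649, with Apoe.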

How the data were processed

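Per the labels' protocols, Trizol and DNase served for liver RNA, which was then depleted of ribosomal RNA, made into libraries with a TruSeq RNA v2 kit and sequenced on a HiSeq2500. The submitters' processing notes name Trimmomatic 0.38, HISAT2 2.1.0, HTSeq 0.11.2 and mm10; no source at hand names the annotation or strand setting. What was tested are the deposited raw counts, 1 row per gene symbol. The authors also deposited 1 table of log2 values for each library, which were recomputed from the counts as the log2 of size-factor-scaled counts plus 1 (tolerance 1e-06, 0 values outside it) and not used further.

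Low rows were dropped by edgeR's filterByExpr (4198 of 24421 entries kept), scaled by TMM and fitted in 1 quasi-likelihood model with 8 groups and all 24 libraries (edgeR 4.0.16, R 4.3.3; common biological coefficient of variation 0.317). The 16 comparisons were each adjusted over all 4198 genes, with a threshold of 0.05. An SE here is the absolute log2 fold change over the square root of the F statistic of edgeR's test. The SE and the 95% intervals built from it are therefore approximate. CPM are counts over the filtered, TMM-scaled library size. Libraries under 10000 counts, here 1, were left out of group means and likeness. No 2 replicates agreed within counting error (chi-square over its degrees of freedom 2.41 to 10.6). Positions came from GENCODE M21, with 23334 entries matched by symbol and 631 by synonym, and promoters from RefSeq GRCm38.p6. The model was tested on simulated data.

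All 10 members are named. Other genes were named from fixed lists, at most 3 per list, direction and comparison by smallest adjusted p; values of a few further called genes of a list were added after they were seen. Some genes of these lists are not reported here. Likeness names the gene with the highest Pearson r on log2 CPM (prior count 2) among tested genes that are not members. The members and lists were chosen with earlier results of these data known. Alternatives were limma-voom with quality weights (limma 3.58.1), DESeq2 1.42.0, another scaling, no filter, the compared groups alone, 23 libraries, the replicate block, TMM within overlap classes, entries without overlap alone, and leaving out each library.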

Additional observations from a re-analysis of the deposited data

Results flagged for a closer look

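For 5 apolipoproteins the effect of the Western diet at 12 months differed between mice on air and mice that had inhaled VC, by edgeR's interaction test. The difference of log2 fold changes was -2.47 for Apob, -2.25 for Apoa2, -2.37 for Apoh, -2.27 for Apoc1 and -1.49 for Apoa1. Of all genes, 9.81% were called in this test. The call of Apoa1 was lost in 8 of the 12 fits that left out 1 library, with -1.17 without the first m12_CD library, -1.14 without the second m12_CD+VC library and -1.18 without the second m12_WD library.

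The effect of the diet on air also differed between 12 months and 12 weeks for 4 of them, by 3.13 for Apob, 2.33 for Apoa2, 2.15 for Apoh and 1.97 for Apoc1 on the log2 scale. Of all genes, 6.67% were called in this test. The calls of Apoc1 and Apoh were each lost in 8 of the 12 fits that left out 1 library. The effect of VC on control diet differed between the times for Apob, by 2.31, in a test that called 0.143% of all genes. This call was lost in 10 of the 12 fits that left out 1 library. These tests share the m12_CD libraries. Apob is the 1 gene in all 3 tests, and its mean was lowest in m12_CD of all 8 groups.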

How the results depend on the processing

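Of the member results under alternatives, 2447 kept their side of the threshold, 109 no longer passed, 21 newly passed and 0 called values changed sign. Most of these results were not called in the main fit, and only called ones can stop passing. The 109 are therefore not to be read as a share of the 2447. Among the calls, Apob in the interaction at 12 months was lost in 0 of 12 fits without 1 library. Apob in VC by time was lost in 10 of 12. The fit on entries without overlap alone does not hold Apoa4, Apoa5 or Apoh, so none of these can be called in it. Members called were as follows. Diet under VC at 12 weeks called 1, and 0 with entries without overlap alone, a fit that does not hold Apoa4. VC on Western diet at 12 weeks called 0, but 1 with no filter and 1 with the compared groups alone, and the interaction at 12 weeks 0, but 1 with no filter and 1 with limma-voom, each time Apoa4. VC on control diet at 12 months called 3, against 5 with the other scaling (RLE), 5 with DESeq2, 1 with no filter and 0 with entries without overlap alone. The interaction at 12 months called 5, against 3 with TMM within overlap classes and 1 with entries without overlap alone. Time on control diet with VC called 1, Apoa4, and 0 with entries without overlap alone, which do not include Apoa4. Time on Western diet called 7, against 4 with no filter, 4 with 23 libraries, 4 with TMM within classes and 2 with entries without overlap alone. Diet by time called 4, against 2 with the compared groups alone, 2 with 23 libraries, 2 with TMM within classes and 2 with entries without overlap alone. VC by time called 1, and 0 with DESeq2, limma-voom, the compared groups alone, 23 libraries, TMM within classes and entries without overlap alone, settings in which 0 genes of the whole table were called, against 6. The cause was not tested, other than where a fit lacks the gene or the library.

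Leaving out 1 library gave 0 to 1 members for diet under VC at 12 weeks, 3 to 4 for diet on air at 12 months, 0 to 3 for VC on control diet at 12 months, 0 to 1 and 2 to 5 for the interactions at 12 weeks and 12 months, 1 to 2 for time on control diet, 1 to 1 with VC, 1 to 7 for time on Western diet, 1 to 4 for diet by time, 0 to 1 for VC by time and 0 to 0 in the other 6 comparisons. With RLE the all-gene median shifted (log2) by 0.39 for diet on air, 0.41 for VC on control diet and -0.51 for the interaction at 12 months, and the members' median less that of all genes from 0.69 to 0.69, 0.74 to 0.78 and -1.41 to -1.48. Only 2026 of the 4198 entries of the main fit are without overlap, so counts of genes from the fit on these alone have another base. Of all genes, diet on air at 12 months called 1028, against 610 with the compared groups alone and 369 with entries without overlap alone; VC on control diet 219, against 442 with RLE, 103 with no filter, 134 with limma-voom, 73 with the compared groups alone, 103 with TMM within classes and 20 with entries without overlap alone; the interaction 412, against 232 with no filter, 252 with DESeq2, 255 with TMM within classes and 141 with entries without overlap alone; and time on Western diet 613, against 366 with DESeq2 and 240 with entries without overlap alone.

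With the replicate number as a block, the call of 0 of 160 member results changed: 4 members for diet on air, 3 for VC on control diet, 5 for the interaction at 12 months and 7 for time on Western diet. The numbers share no source in the labels: residuals of same-numbered libraries had a mean correlation of 0.0035 over 77 pairs, and 14 of 23 libraries were more like their own number. Depth limits Apom most, with 218 counts in all.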
